A study of Homo sapiens with 2 samples.

Results

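The bright circRNA probes are 1829 of the 21442 custom circRNA probes (8.53%) on a human Agilent array, chosen because their spots were bright on both arrays of the study. A probe was taken when its spot carried no outlier flag, was well above background on both arrays and had a processed signal of 50 or more on both. The signal chose the members, so their brightness is given below as a description with no test. The change between the arrays and the order of the bases were not part of the rule. The arrays hold 138405 different probes of 60 bases in all, and the members are compared with the Agilent catalogue probes that met the same rule, 16930 of 37549 (45.1%). That these custom probes are circRNA probes was inferred from their names and from matches to circRNA primers, because the annotation columns read here did not name them.

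HepG2 is an established liver cancer cell line derived from a hepatoblastoma. The NC array was hybridised with RNA of control cells and the siFOXA1 array with RNA of cells given siRNAs against FOXA1, a pioneer transcription factor of liver cells that opens chromatin for other factors. The methods name a mixture of 3 siRNAs, a scrambled siRNA for the control and 48 h of transfection. There was 1 array per condition with no replicate, so no p-value was computed, the number of arrays limits the precision, and the knockdown cannot be told apart from any other difference between the cultures or hybridisations. The level of FOXA1 itself and the defining markers of liver cells were not checked. Only the circRNA probes were searched for 17 such genes, and the catalogue probes were not. Of the 17 only VIM had a circRNA probe sharing 20 bases with its start, and that probe was not a member.

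A circular RNA (circRNA) forms when the end of a downstream exon is spliced back to the start of an upstream exon, which leaves a closed ring with no free ends and no poly(A) tail. Linear RNA of the same gene holds the same exons, and only the back-splice junction belongs to the ring. A probe for a circRNA is therefore laid across that junction, and a sequence on either side of it can also occur in the linear RNA.

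The brightest members are shown first, so that the C-rich stretches and the letters AAATAA described below can be seen in the sequences. Each is printed as the scanner output lists it. Capitals mark runs of 4 or more C and the letters AAATAA in bases 31 to 60, which are AATAAA, the letters of the main polyadenylation signal, when the probe is read backwards.
CUST_H6C_08521: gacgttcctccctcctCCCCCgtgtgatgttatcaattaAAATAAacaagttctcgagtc
CUST_H6C_05132: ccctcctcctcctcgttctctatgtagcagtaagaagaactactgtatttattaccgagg
CUST_H6C_12824: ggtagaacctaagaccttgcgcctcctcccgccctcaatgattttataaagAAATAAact
CUST_H6C_17944: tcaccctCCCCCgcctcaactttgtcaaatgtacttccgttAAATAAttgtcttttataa
CUST_H6C_15979: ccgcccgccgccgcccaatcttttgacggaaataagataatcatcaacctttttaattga
The first 20 bases of these 5 probes held 12, 12, 5, 13 and 13 C, and the last 20 held 4, 3, 1, 1 and 4. AAATAA lay in bases 31 to 60 of CUST_H6C_08521, CUST_H6C_12824 and CUST_H6C_17944. Which end of a listed circRNA sequence was attached to the slide was not settled from the sources used here.

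The members with the largest changes are shown next. They are the 5 lowest and the 5 highest siFOXA1 to NC ratios among members that passed 1.4-fold in the same direction after percentile scaling, quantile normalization and normexp background correction. Capitals mark alternating CA or TG runs of 10 or more bases and runs of 4 or more C.
CUST_H6C_15741: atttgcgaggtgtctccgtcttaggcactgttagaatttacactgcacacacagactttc
CUST_H6C_01478: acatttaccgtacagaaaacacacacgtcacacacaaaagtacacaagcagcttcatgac
CUST_H6C_18489: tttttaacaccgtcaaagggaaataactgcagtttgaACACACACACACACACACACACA
CUST_H6C_10686: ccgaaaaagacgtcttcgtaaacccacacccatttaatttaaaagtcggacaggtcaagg
CUST_H6C_18490: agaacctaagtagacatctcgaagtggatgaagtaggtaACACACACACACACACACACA
CUST_H6C_09914: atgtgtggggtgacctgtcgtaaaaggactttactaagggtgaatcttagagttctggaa
CUST_H6C_11828: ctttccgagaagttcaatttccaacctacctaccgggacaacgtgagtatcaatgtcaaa
CUST_H6C_12474: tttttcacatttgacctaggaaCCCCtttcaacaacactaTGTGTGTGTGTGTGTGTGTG
CUST_H6C_12475: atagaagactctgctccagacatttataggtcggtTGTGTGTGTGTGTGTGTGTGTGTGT
CUST_H6C_11930: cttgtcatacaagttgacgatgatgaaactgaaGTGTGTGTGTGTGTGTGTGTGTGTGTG
The first 5 of these were lower on siFOXA1 and the last 5 were higher. Long alternating runs lay in bases 34 to 60 of 2 of the 5 lower and 3 of the 5 higher probes.

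The processed signal of the members ran over more than 3 orders of magnitude. On NC it had a median of 170.5 with quartiles of 93.9 and 490.8, from 50.4 to 304671. On siFOXA1 the median was 146.4 with quartiles of 82.7 and 432.9, from 50.006 to 298321. Over all circRNA probes the median was 2.22 and 2.17, so the members formed the bright end of a set that was mostly dim. Of the members, 1182 (64.6%) had at least 100 on both arrays, 281 (15.4%) at least 1000, 70 at least 10000 and 12 at least 100000. The members carried 98.0% of the summed signal of all circRNA probes on NC and 97.6% on siFOXA1, and the 10 brightest probes alone carried 38.0% and 39.8%. No member was saturated (0 of 1829), and each was printed as 1 spot.

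The remaining circRNA probes are accounted for by 3 steps. There were 7 flagged probes, 4101 unflagged ones were well above background on both arrays, and 2272 of those had a signal under 50 on at least 1 array. Of the 2272, 34 were under 50 on NC alone and 163 on siFOXA1 alone. The minimum was set on the unscaled signal, and the siFOXA1 array was dimmer, with a 75th percentile of 91.7 against 105.8 on NC. Just inside the minimum lay CUST_H6C_01687 (58.0 on NC, 50.006 on siFOXA1), CUST_H6C_01525 (53.6 and 50.2) and CUST_H6C_14247 (54.3 and 50.2). Just outside lay CUST_H6C_11515 (75.3 and 49.9), CUST_H6C_04626 (53.7 and 49.8) and CUST_H6C_17778 (70.7 and 49.7).

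The brightest member, CUST_H6C_08521, had a processed signal of 304671 on NC and 298321 on siFOXA1. CUST_H6C_05132 had 303367 and 291930, CUST_H6C_12824 had 247687 and 238861, CUST_H6C_17944 had 248520 and 222144, and CUST_H6C_15979 had 231422 and 234451. Feature Extraction gave CUST_H6C_08521 on NC an error of 30467. After each array's 75th percentile of the log2 signal was subtracted, the log2 change of siFOXA1 against NC was 0.18, 0.15, 0.15, 0.04 and 0.23 for the 5 probes in this order, and none passed 1.4-fold.

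The range of GC content was narrow. Every circRNA probe had a GC content between 35% and 45%, and the median was 43.3% in the members and 43.3% in the other 19613 circRNA probes. The share of circRNA probes that were members was lower at the low end of this range, 48 of 1942 (2.47%) at 35% to 38.3% GC, against 8.20% of the 4806 probes at 40% to 41.7%, 9.50% of the 7007 at 43.3% and 9.38% of the 7687 at 45%. At the highest value, 45%, 721 members were tied, and at the lowest, 35%, 5 were tied, so neither end is named. Catalogue probes weighted to the signals of the members (the members were cut into 20 bins of equal number by their mean log2 signal, and each bin of catalogue probes was given equal weight) had a median of 45.0% with quartiles of 38.3% and 51.7%.

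The members differed from the dim circRNA probes in all 4 bases. Over the whole probe, C made up 24.3% of the bases of the members and G 19.1%. In the 17341 circRNA probes that were not well above background on both arrays, a set that here and below includes the 7 flagged probes, these shares were the other way round, with 19.7% C and 23.0% G. A made up 27.2% of the bases of the members and T 29.4%, against 30.9% and 26.4% in those 17341 probes. The 2272 probes between these sets had 22.9% C and 20.6% G. Catalogue probes at the members' signals held 22.9% C and 22.1% G.

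The excess of C in the members was largest at the start of the listed sequence. C made up 28.7% of bases 1 to 20, 24.8% of bases 21 to 40 and 19.5% of bases 41 to 60. In the 281 members of 1000 or more on both arrays the fall was steeper, with 38.6%, 23.6% and 15.1%. In the circRNA probes not well above background on both arrays C was nearly even, with 20.2%, 18.9% and 20.03%. It was nearly even in the catalogue probes at the members' signals as well, with 23.4%, 23.1% and 22.4%. These are listed positions, which may run the other way in catalogue probes. In the same 281 members A rose along the probe, from 17.7% in bases 1 to 20 to 36.4% in bases 41 to 60.

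The share of circRNA probes that were members climbed once bases 1 to 20 held 7 or more C. It was 5.75% of the 3879 probes with 0 to 2 C, 5.21% of the 8354 with 3 or 4, and 6.93% of the 6419 with 5 or 6. It was 18.1% of the 2268 probes with 7 or 8, 54.9% of the 455 with 9 or 10, and 65 of the 67 probes (97.0%) with 11 to 13. Those 65 members had a median signal of 6635 over both arrays, against 132.2 for the members with 5 or 6 C. C in bases 41 to 60 gave a climb too, from 5.82% of the 6043 probes with 5 or 6 C to 9.44% of the 1833 with 7 or 8, 33.1% of the 254 with 9 or 10, and 16 of the 22 probes (72.7%) with 11 to 13. The median signal of those 16 members was 88.2. At 0 to 2 C in bases 41 to 60 the share was 12.4%. The count of G in bases 1 to 20 gave no such climb, with 13.7% members at 0 to 2 G, 5.14% at 7 or 8 and 14.8% of the 81 probes at 11 to 13.

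Runs of C followed the same order. The letters CCCC occurred in 663 members (36.2%), in 55.5% of the members of 1000 or more, in 17.3% of the probes well above background but under 50, and in 3.94% of those not well above background on both arrays. Over all circRNA probes the share was 8.11%, and it was 17.3% in catalogue probes at the members' signals. Its complement GGGG occurred in 5.58% of the members, 7.20% of all circRNA probes and 12.7% of the matched catalogue probes. The letters CCTCC were in 19.6% of the members and 4.72% of all circRNA probes, and CCGCC in 5.85% and 1.11%. A probe can hold several of these motifs, and they may overlap.

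The letters AAATAA, searched because they are AATAAA backwards, were held by 400 members (21.9%) against 10.73% of all circRNA probes and 3.77% of the matched catalogue probes. The share was 32.4% in the members of 1000 or more and 8.84% in the probes not well above background on both arrays. AATAAA read as listed was in 9.68% of the members, 4.62% of all circRNA probes and 6.07% of the matched catalogue probes. On the other strand, TTATTT was in 4.98% and 2.50%, and TTTATT in 4.54% and 2.40%, of the members and of all circRNA probes. The stretch AAATAAA holds both AAATAA and AATAAA and counts for both. Read backwards, 178 members shared 20 or more bases with a linear probe (catalogue or second custom series), against 8 as listed. The listed letters may therefore run opposite ways in circRNA and catalogue probes. If so, AAATAA in the members (21.9%) stands beside AATAAA in the matched catalogue probes (6.07%).

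The position of AAATAA was uneven. Of 413 occurrences in the members, 400 (96.9%) began at base 31 or later, 5 began at bases 26 to 30 and 8 at bases 1 to 25. Over all circRNA probes 91.7% of 2332 occurrences began at base 31 or later. Read backwards, this puts AATAAA in the opening part of the sequence and the C-rich stretch after it. Of the 208 circRNA probes with AAATAA in bases 31 to 60 and CCCC in bases 1 to 30, 117 (56.3%) were members, with a median signal of 517.7. With CCCC there but no AAATAA in bases 31 to 60 it was 315 of 787 (40.0%), with AAATAA but no CCCC 271 of 1908 (14.2%), and with neither 1126 of 18539 (6.07%).

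Some listed member sequences began with a stretch that, read backwards, occurs near the start of a known gene. Sequences were compared with windows from 250 bases before to 50 bases after the starts of RefSeq genes on GRCh38.p14. The minimum was 20 shared consecutive bases, and the windows may not cover every gene. Read backwards, 114 members (6.23%) matched the window of a single gene, against 378 of the other circRNA probes (1.93%). As listed 4 members did, complemented 40, and reverse complemented 2. Of the 114 members, 108 matched up to the first listed base of the probe, over 20 to 45 bases with a median of 26.5, in 102 genes. In 74 of the 108 the match began within 30 bases of the gene start, and in the other 34 farther from it. In 54 (50%) the remaining part of the probe held AATAAA when read backwards, against 41.1% of the 321 other circRNA probes with a match of this kind. A shared stretch is a description of letters, and it does not show which RNA bound the probe.

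The 10 brightest of these 108 members, a choice made after their values were seen, are shown with the stretch that was found in the window of the named gene, when read backwards, in capitals.
CUST_H6C_08521 (LDHB): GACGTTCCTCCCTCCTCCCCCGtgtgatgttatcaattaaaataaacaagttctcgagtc
CUST_H6C_12824 (LMAN1): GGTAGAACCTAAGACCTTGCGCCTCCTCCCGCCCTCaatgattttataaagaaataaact
CUST_H6C_07049 (KIF5B): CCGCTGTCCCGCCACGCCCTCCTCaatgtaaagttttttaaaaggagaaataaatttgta
CUST_H6C_05927 (PGM1): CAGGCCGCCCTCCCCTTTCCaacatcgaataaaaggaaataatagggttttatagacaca
CUST_H6C_12016 (EIF1): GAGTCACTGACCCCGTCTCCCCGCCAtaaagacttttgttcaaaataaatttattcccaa
CUST_H6C_15507 (CCDC117): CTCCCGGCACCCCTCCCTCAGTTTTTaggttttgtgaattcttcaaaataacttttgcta
CUST_H6C_11060 (UBFD1): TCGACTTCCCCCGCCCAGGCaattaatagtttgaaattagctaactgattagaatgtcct
CUST_H6C_21295 (RPL39): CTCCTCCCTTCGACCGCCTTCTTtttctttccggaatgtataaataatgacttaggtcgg
CUST_H6C_15358 (DYRK1A): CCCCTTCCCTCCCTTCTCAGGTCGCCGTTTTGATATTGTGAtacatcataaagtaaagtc
CUST_H6C_13441 (ODC1): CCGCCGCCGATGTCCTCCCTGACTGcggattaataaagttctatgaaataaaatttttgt
In 8 of the 10 the lower-case part holds AATAAA read backwards, and in the UBFD1 and DYRK1A probes it does not. The match began within 30 bases of the gene start in 8 of the 10, whereas the PGM1 match began 135 and the UBFD1 match 186 bases before it (positions of -135 and -186).

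The coordinates of the matched stretches are those of GRCh38.p14. LDHB, a subunit of lactate dehydrogenase, was matched over 22 bases at chr12:21657836-21657857, and LMAN1, a cargo receptor between the endoplasmic reticulum and the Golgi, was matched over 36 bases at chr18:59359241-59359276. KIF5B, a kinesin heavy chain that moves cargo along microtubules, was matched over 24 bases at chr10:32056420-32056443, and PGM1, a phosphoglucomutase of glycogen metabolism, was matched over 20 bases at chr1:63593276-63593295. EIF1, which helps the ribosome choose the start codon, was matched over 26 bases at chr17:41688874-41688899, and CCDC117 was matched over 26 bases at chr22:28773139-28773164. UBFD1 was matched over 20 bases at chr16:23557541-23557560, and RPL39, a protein of the large ribosomal subunit, was matched over 23 bases at chrX:119791623-119791645. DYRK1A, a protein kinase, was matched over 41 bases at chr21:37420297-37420337, and ODC1, the ornithine decarboxylase that begins polyamine synthesis, was matched over 25 bases at chr2:10448303-10448327.

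None of these 10 probes passed 1.4-fold. The KIF5B probe had a signal of 136073 on NC and 123213 on siFOXA1, a log2 change of 0.06. The PGM1 probe had 128863 and 112074 (log2 change 0.01) and the EIF1 probe 85124 and 73614 (log2 change -0.0031). The CCDC117 probe had 70183 and 57560 (log2 change -0.08) and the UBFD1 probe 57998 and 54174 (log2 change 0.11). The RPL39 probe had 53294 and 41455 (log2 change -0.16) and the DYRK1A probe 52423 and 42016 (log2 change -0.11). The ODC1 probe had 47592 and 45193 (log2 change 0.13). Over all 108 members the median log2 change was 0.01 with quartiles of -0.12 and 0.13. The lowest was -0.50, for the member matching SNRPD2, a core protein of spliceosomal particles, with 186.5 on NC and 114.7 on siFOXA1. The highest was 0.94, for the member matching CTDSP2, a small phosphatase, with 220.4 on NC and 367.4 on siFOXA1. The latter 2 members, named for lying at the ends, were the 1 lower and the 1 higher probe past 1.4-fold among the 108.

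The numbers in the probe names followed the chromosomes of these matches. Of the 108 members, 105 had a number above 4500, a limit chosen after the values were seen. In order of their numbers, these 105 members went through 22 chromosomes with 21 changes of chromosome and 0 steps back in alphabetical order (1, 10, 11 and so on to X), so each chromosome formed 1 block. Over all 401 circRNA probes with such a match and number there were 31 changes and 4 steps back among 23 chromosomes. No match of this kind fell on 1 of the autosomes. The names were used neither to read the sequences nor to find the matches.

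The order of the members by signal was similar on both arrays, which the rule, using both signals, partly fixes. Over the 1829 members Pearson's r of the log2 signals was 0.993 and Spearman's rho 0.975, as a description across probes that share the 2 hybridisations, and neither value shows a shift of all probes. After percentile scaling the log2 change had a median of 0.01, quartiles of -0.11 and 0.15, an interquartile range of 0.26, and extremes of -3.07 and 1.28. In the catalogue probes at the same signals the interquartile range was 0.40, about a median of -0.01. In the 21196 probes of the second custom series that met the same rule it was 0.335, without weighting to the members' signals.

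Fewer members than catalogue probes passed 1.4-fold. There were 30 lower members (1.64%) and 56 higher ones (3.06%). The split rests on the scaling: there were 37 lower and 40 higher after median scaling, 134 and 20 with no scaling, and 1162 and 4 relative to the spike-in probes, and normexp background correction gave 12 and 13. Over all 39964 probes that met the signal rule, percent called was 7.34 in the lower and 7.19 in the higher direction, and over all 66166 probes well above background on both arrays it was 9.15 and 9.38. Weighted to the signals of the members, 9.39% of the catalogue probes were lower and 8.90% were higher, which for 1829 probes would be 171.8 and 162.7. Catalogue probes printed once, as the members were, gave 9.49% and 8.97%. With 1 array per condition this difference between the kinds of probes has no replicate check.

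Repeated spots gave the size of the noise within an array. They come from linear probes printed 10 times, since no circRNA probe was repeated, and they cover no difference between cultures or hybridisations. At the members' signals, among 138134 pairs made from repeated spots of a probe within an array, 0.427% were past 1.4-fold in each direction, which is 7.80 of 1829. The counts of lower and higher members were therefore above the spot noise and below the catalogue probes. For 1695 linear probes with at least 5 usable spots, the SD of the log2 change from spot to spot had a median of 0.095, with quartiles of 0.062 and 0.13. Averaging the spots of these probes left 7.54% lower and 7.43% higher, against 8.09% and 7.38% for their single spots.

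The share of members past 1.4-fold differed between classes of signal, and not alike in the 2 directions. In the 570 members with a mean signal of 50 to 100, 8 were lower (1.404%) and 34 higher (5.96%), and in the 480 members of 100 to 200, 18 were lower (3.75%) and 13 higher (2.71%). In the 483 members of 200 to 1000, 2 were lower and 8 higher. In the 296 members of at least 1000, 2 were lower and 1 was higher. The catalogue probes of the same 4 classes had 7.48%, 10.67%, 9.88% and 11.05% lower and 8.86%, 10.9%, 8.73% and 7.01% higher. Spot pairs passed in a given direction at 0.872%, 0.417%, 0.141% and 0.0172%. The interquartile range of the members fell from 0.30 to 0.27, 0.24 and 0.19 over the classes, against 0.40, 0.44, 0.40 and 0.36 in the catalogue probes. The signal minimum left out 163 probes for siFOXA1 alone and 34 for NC alone, and its part in the excess of higher members in the dimmest class was not tested.

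The spots of the members were compared with those of other probes. The SD of the pixels of a spot over its mean had a median of 0.164 on NC and 0.176 on siFOXA1 in the members, 0.167 and 0.176 in matched catalogue probes printed once, and 0.301 and 0.301 in the other circRNA probes, most of them dim. A neighbouring spot of 10000 or more lay beside 7.16% of the members on NC and 5.96% on siFOXA1, against 7.59% and 6.37% of the other circRNA probes and 8.08% and 6.86% of the matched catalogue probes.

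CUST_H6C_15741 and CUST_H6C_01478 fell most. CUST_H6C_15741 had a signal of 515.6 on NC and 53.2 on siFOXA1 (log2 change -3.07, 8.40-fold lower), with a Feature Extraction error of 51.6 and 5.78. CUST_H6C_01478 had 1156 and 124.6 (log2 change -3.01, 8.04-fold lower). After normexp background correction the folds were 4.54 and 6.10, so the size of the first fall rests on the background setting. The siFOXA1 signal of CUST_H6C_15741 lay just above the minimum of the rule. Both hold the letters CACACA.

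Probes that shared 20 or more bases with these 2 members were dim on both arrays. CUST_H6C_15740, with 30 shared bases, had 6.33 on NC and 2.09 on siFOXA1, and CUST_H6C_15742, with 20, had 2.17 and 2.15. The 4 probes that shared 26 to 34 bases with CUST_H6C_01478, namely CUST_H6C_12168, CUST_H6C_12169, CUST_H6C_12170 and CUST_H6C_00252, had between 2.00 and 2.23 on NC and between 1.89 and 2.27 on siFOXA1. None of these 6 was well above background on either array, so no fold is given.

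CUST_H6C_18489 had 11320 on NC and 3816 on siFOXA1 (log2 change -1.36), and CUST_H6C_18490 had 5092 and 1918 (log2 change -1.20). They are the only 2 circRNA probes with an alternating CA run of 10 or more bases, and they share a stretch of 22 bases that takes in the run of the second. CUST_H6C_10686, without such a run, had 161.4 and 57.7 (log2 change -1.28).

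CUST_H6C_09914 had 64.0 on NC and 134.3 on siFOXA1 (log2 change 1.28), and CUST_H6C_11828 had 51.1 and 94.9 (log2 change 1.099). CUST_H6C_12474 had 66.4 and 121.7 (log2 change 1.08), CUST_H6C_12475 had 671.3 and 1198 (log2 change 1.04), and CUST_H6C_11930 had 1147 and 2028 (log2 change 1.03). Over all higher members the median signal was 71.7 on NC and 100.9 on siFOXA1, and over all lower members it was 162.9 and 85.2. The order of these medians is partly fixed by the signal minimum on both arrays and by the calls themselves.

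Partners of the higher members outside the TG runs did not all move with them. CUST_H6C_03440, which shares 28 bases with CUST_H6C_09914, had 40.2 on NC and 26.1 on siFOXA1 (log2 change -0.42), and CUST_H6C_09913, which shares 35, had 7.10 and 14.8 and was well above background on siFOXA1 alone. CUST_H6C_12471, which shares 34 bases with CUST_H6C_12475, had 17.1 and 14.05 (log2 change -0.08). The 2 partners of CUST_H6C_11828 and CUST_H6C_12481, a further partner of CUST_H6C_12475, were not well above background on either array.

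Long alternating runs went with the direction of the change. Of the 13 circRNA probes with a TG run of 10 or more bases 6 were members, and all 6 were higher past 1.4-fold, with log2 changes from 0.74 to 1.08 and a median of 1.02. CUST_H6C_12478 was among them, with 471.1 on NC and 820.8 on siFOXA1. These 6 probes share the run and the 2 CA probes theirs, so they are not independent measurements. Without these 8 members, 28 were lower and 50 higher of 1821. Shorter runs were mixed. Their lengths were counted in whole pairs, so an odd last base was left out. Of the 4 members with a CA run counted as 8 bases all 4 were below 0, and 3 were lower past 1.4-fold. These 4 include CUST_H6C_15741 and CUST_H6C_01478, which were named for the largest falls, and the other 2, CUST_H6C_09450 and CUST_H6C_10492, had log2 changes of -0.60 and -0.06. The 34 members with a CA run counted as 6 bases had a median of 0.01, with 2 lower and 1 higher. The 39 members with a TG run counted as 6 bases had a median of -0.06, with 23 below 0, 0 lower and 2 higher. The 1 member with a TG run counted as 8 bases had -0.04. CACACA was held by 1.25% of all circRNA probes and 1.48% of the members, TGTGTG by 1.26% and 1.26%, ACACACA by 0.583% and 0.929%, and GTGTGTG by 0.434% and 0.437%. Of the 17 members with ACACACA 6 were lower and 1 higher, and of the 8 with GTGTGTG 0 were lower and 6 higher, the long runs included. Over all catalogue probes that met the signal rule 9.85% were lower and 8.88% higher. Of these catalogue probes, 66 of 313 with CACACA were lower and 31 higher, and 58 of 510 with TGTGTG were lower and 63 higher. With 1 base more, 48 of 132 catalogue probes with ACACACA were lower and 10 higher, and 17 of 137 with GTGTGTG were lower and 39 higher.

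The share past 1.4-fold, 4.70% of all members in both directions together, varied among the C-rich members. The 117 members with AAATAA in bases 31 to 60 and CCCC in bases 1 to 30 held 0 lower and 1 higher probe, with an interquartile range of the log2 change of 0.18. The 315 with CCCC there and no AAATAA held 1 lower and 9 higher. The 65 members with 11 to 13 C in bases 1 to 20 held 0 lower and 0 higher ones, the 250 members with 9 or 10 C held 9 lower and 2 higher, and the 411 with 7 or 8 C held 3 lower and 19 higher. CCCC was present in 1 of the 30 lower members and 12 of the 56 higher ones, against 650 of the 1743 that stayed within 1.4-fold. In members with a mean signal of 50 to 100, 5.26% of the 152 with CCCC and 8.13% of the 418 without it passed 1.4-fold. From 100 to 200 it was 2.26% of 133 and 8.07% of 347, from 200 to 1000 it was 0.922% of 217 and 3.01% of 266, and at 1000 or more it was 0 of 161 and 3 of 135 (2.22%). The share was thus lower with CCCC in each of the 4 classes, by a few probes in the brightest ones, and this was not tested. The 3 at 1000 or more were CUST_H6C_18489, CUST_H6C_18490 and CUST_H6C_11930, which hold the long alternating runs and are not independent. The class of 200 to 1000 without CCCC includes CUST_H6C_12475, which also holds such a run.

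Many members shared bases with other circRNA probes. A stretch of 20 or more consecutive bases was shared with at least 1 other circRNA probe by 1152 members, in 3165 combinations of a member and a partner, and 31.7% of these partners were members themselves, against 8.53% of all circRNA probes. The share rose from 26.7% at 20 to 29 shared bases to 32.7% at 30 to 39 and 51.2% at 40 to 49. It was higher for partners identical over the first 25 bases or more, 36 of 54 (66.7%), than for those identical over the last 25 or more (36 partners, 33.6%). Members that shared 40 or more bases, 100 pairs, differed in signal by a median of 1.29-fold, and their log2 changes by a median of 0.12. At 20 to 39 shared bases, 402 pairs, the values were 1.68-fold and 0.15. Only 4.00% of the former pairs and 8.46% of the latter differed in change by more than 1.4-fold.

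Grouped by shared stretches of 20 or more bases, 615 members fell into 251 groups and 1214 stood alone. The largest group had 7 members, numbered from CUST_H6C_11210 to CUST_H6C_11218, and its brightest and dimmest are shown to compare the bases.
CUST_H6C_11217: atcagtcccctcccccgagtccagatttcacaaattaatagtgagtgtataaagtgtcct
CUST_H6C_11218: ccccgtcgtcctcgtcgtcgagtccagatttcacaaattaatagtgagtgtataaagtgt
CUST_H6C_11211: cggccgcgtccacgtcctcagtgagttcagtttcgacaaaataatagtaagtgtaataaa
CUST_H6C_11217 had 62778 on NC and 47440 on siFOXA1, CUST_H6C_11218 had 17948 and 14190, and CUST_H6C_11211 had 56.6 and 75.7. The first of these has runs of C in its opening bases and shares the later part with the second, while the dimmest opens differently. The log2 changes of the 7 ran from -0.20 to 0.63. A group is a chain, so not every member shares a stretch with every other, and CUST_H6C_11217 and CUST_H6C_11211 share no stretch of 20 bases themselves.

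The 3 groups of 6 members, described after their values were seen, differed in spread. In the first, CUST_H6C_10734 was the brightest (1170 on NC, 931.3 on siFOXA1) and CUST_H6C_10733 the dimmest (64.3 and 56.3), and the log2 changes ran from -0.72 in CUST_H6C_01751 to 0.05. In the second, CUST_H6C_13211 had 6897 and 6280 and CUST_H6C_13215 67.9 and 55.4, with log2 changes from -0.20 to 0.10. The third is made up of CUST_H6C_16966, CUST_H6C_16967, CUST_H6C_16970, CUST_H6C_16972, CUST_H6C_16973 and CUST_H6C_16974, with signals between 455.7 and 2083 on NC and between 547.0 and 2281 on siFOXA1. All 6 log2 changes of the third group were above 0, from 0.09 to 0.47, and none passed 1.4-fold.

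Members and linear probes matched in reverse showed almost no rank correlation of their changes. Read backwards, 178 members (9.73%) shared 20 or more bases with a catalogue probe or a probe of the second custom series, and so did 8.97% of the other circRNA probes. Of the linear probes in these pairs, 93.3% were well above background on both arrays for the members and 95.4% for the others. For 167 pairs in which the linear probe also met the signal rule, leaving out alternating runs, Spearman's rho was 0.03 for the signals and -0.05 for the log2 changes, as descriptions over 151 members that share arrays. Past 1.4-fold were 25 of the linear probes and 8 of the members, and 1 pair passed on both sides in the same direction. Over all members 4.70% passed in either direction. Of all 39964 probes that met the signal rule 7.34% were lower and 7.19% higher. Counts this small do not show whether the calls of the pairs overlap.

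Of the 38 primers in the supplement of the study, 1 shared 16 or more bases with members. Read backwards, CUST_H6C_10733 below holds the whole forward primer of the circRNA h_circ_0007099 and CUST_H6C_03960 holds part of it, and they are printed because no other member could be tied to a named circRNA in this way.
CUST_H6C_03960: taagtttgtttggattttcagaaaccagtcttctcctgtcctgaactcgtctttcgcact
CUST_H6C_10733: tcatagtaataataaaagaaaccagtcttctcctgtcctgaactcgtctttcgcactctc
CUST_H6C_03960 had 73.4 on NC and 65.9 on siFOXA1 (log2 change 0.05), and CUST_H6C_10733 had 64.3 and 56.3 (log2 change 0.01). Neither passed 1.4-fold. A stretch shared with a primer does not by itself mark the junction.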

How the data were processed

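RNA of HepG2 cells was hybridised to 2 one-colour arrays, 1 per condition, and conditions were taken from the sample labels. The deposited intensity of a spot was processed by Feature Extraction 10.7.1.1, with background subtraction and detrending within the array. The authors also deposited a matrix of log2 values, used as an alternative, whose step between arrays is not given in the sources used here. Annotation columns did not name the probes. The members and lists were chosen with earlier results of these data known. From the intensities, log2 was taken and each array's 75th percentile over all spots that were not controls was subtracted. This moved the members' change by 0.21 on the log2 scale. Flagged spots were left out, and spots of a probe were averaged. Calls used 1.4-fold. Catalogue probes were weighted over 20 bins of signal. Named members were the 5 brightest, the 5 largest changes in each direction passing 3 settings, those at the signal minimum, those sharing 16 bases with a primer, and the ends of the largest group. The rule also took the ends of GC content, which were tied. Depth is not defined for arrays. The scripts were tested on simulated data. Promoter windows came from RefSeq (GRCh38.p14). The tools were limma 3.58.1 in R 4.3.3, and pandas 2.3.3, scipy 1.17.1 and numpy 2.4.6 in Python 3.11.15.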

Additional observations from a re-analysis of the deposited data

How the results depend on the processing

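No paired analysis was possible because NC and siFOXA1 were hybridised once each, and the slide could not be used as a block. Quantile normalization, median scaling, the 75th percentile over probes well above background, cyclic loess, subtraction of the matched catalogue median, the authors' matrix and keeping outlier spots gave 24 to 37 lower and 40 to 71 higher members, in place of 30 and 56. Other settings moved the counts by more than 1.5 times. No scaling gave 134 lower and 20 higher, with a median log2 change of -0.20. The E1A_r60 spike-in probes, which differed by 0.35 on the log2 scale before scaling, gave 1162 lower and 4 higher, with a median of -0.54, so the direction of the members as a whole rests on the scaling. Normexp gave 12 and 13. A signal minimum changes the number of members too: a minimum of 25 gave 72 and 109 of 2637 (2.73% and 4.13%), a minimum of 100 gave 12 and 20 of 1182 (1.02% and 1.69%), and no minimum gave 228 and 286 of 4101 (5.56% and 6.97%), in place of 1.64% and 3.06% of 1829. A threshold of 1.2-fold gave 155 and 223, and 2-fold gave 6 and 6. The matched catalogue share stayed at 8.62% to 9.49% lower and 8.92% to 10.1% higher in 3 alternatives. The share of spot pairs was 0.280% with catalogue probes only, in place of 0.427%. Under percentile scaling, quantile normalization, cyclic loess, normexp and the authors' matrix, members past 1.4-fold in either direction made up 4.70%, 4.87%, 5.19%, 1.37% and 4.81%, and matched catalogue probes 18.3%, 18.1%, 17.7%, 11.2% and 18.1%. With 1 member per group sharing bases the mean GC content was 43.4%, as with all members.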
